A study of Homo sapiens with 4 samples.

Results

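The genes described here are the machinery that moves a cell out of G1: the D-type cyclins CCND1, CCND2 and CCND3, their kinases CDK4 and CDK6, the inhibitor gene CDKN2A, the pocket protein RB1, the E-type cyclins CCNE1 and CCNE2, and their kinase CDK2. They were chosen by name, and every array probe that carries 1 of these names was taken. This gave 10 genes and 12 probes of the 43305 genes and 58201 probes on the array. CDKN2A and CCNE2 had 2 probes each and the other 8 genes had 1.

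The arrays compared parental and cisplatin-resistant cells of HNSCC, head and neck squamous cell carcinoma. Both parental lines, HN4 and HN30, are established HNSCC lines of human origin and grew in DMEM with serum. HN4/DDP and HN30/DDP were derived from them by a gradually rising dose of cisplatin, a platinum drug that crosslinks DNA, and the labels give 20 μM cisplatin for 48 h for these cells. The question of the comparison was which genes differ in the resistant cells. Each of the 4 conditions was measured once, on 1 one-colour Agilent array, so no difference within a line has a replicate check or a test. No array measured resistant cells without the drug or parental cells with it, so the derived line and the drug at harvest cannot be told apart. The sources used here do not say whether the resistant lines are single clones.

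In G1, D-type cyclins bind CDK4 or CDK6, and the kinases begin to phosphorylate RB1. Unphosphorylated RB1 holds E2F transcription factors, which are needed for the genes of DNA replication. Among those genes are the E-type cyclins, which with CDK2 complete the phosphorylation of RB1 and carry the cell into S phase. CDKN2A encodes p16INK4a, which blocks CDK4 and CDK6, and from another first exon p14ARF, which acts on the p53 pathway. In HNSCC this pathway is often altered, through gain of the chromosome segment with CCND1 or loss of CDKN2A. Gene copies, proteins and phosphorylation were not measured by these arrays.

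Levels are given as log2 of the processed signal relative to the 75th percentile of the array, so 0 means a spot as bright as that percentile. They can be compared between arrays for 1 probe, not between probes. A difference is the resistant minus the parental array, and 1 on the log2 scale is a factor of 2. The scanner SD of a difference follows from the error that the scanner software gave each spot. It was 0.20 for each of the 10 genes except CCND2, for which it was 1.45 in HN4 and 0.39 in HN30, and it holds no variation between cultures. The 4 arrays shared 1 slide.

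The 75th percentile of the signal ranged from 444 to 496, the share of spots well above background from 55.3% to 63.6%, and 0 spots were saturated. Over all genes tested, the median difference was -0.08 in HN4 and 0.06 in HN30. Genes brighter than 3 on the log2 scale had a median difference of -0.45 in HN30 and -0.09 in HN4. Scaling by the median in place of the 75th percentile moved every HN30 difference, bright or dim, by -0.42. The squamous markers were well above background for 8 of 8 genes on 3 arrays and for 7 of 8 on HN30/DDP, where KRT6A was dim. The median difference of these 8 markers was 0.36 in HN4 and -0.39 in HN30. In HN4/DDP 3 were higher past 1 (9.31% of all genes) and 1 lower (8.65%), and in HN30/DDP 1 was higher (19.8%) and 2 lower (13.3%). The keratin KRT5 differed by -4.05 and -1.93. Of the leukocyte markers, 2 of 4 were well above background on 3 arrays and 3 of 4 on HN30/DDP. The summed level of that list was 2.67 in HN4 and 3.22 in HN4/DDP, against 1.87 in HN30 and 5.31 in HN30/DDP. Of the fibroblast markers 2 of 4 were well above background on every array and COL3A1 and DCN were dim on all. The summed level of the fibroblast list was -1.42 in HN4 and 0.02 in HN4/DDP, against -2.29 in HN30 and -0.44 in HN30/DDP, and COL1A1 differed by 1.73 in HN4 and 2.43 in HN30. Of the 3 endothelial markers, 2 were well above background on 3 arrays and all on HN30/DDP, and the summed level was -1.95 in HN4 and -1.69 in HN4/DDP, against -2.21 in HN30 and -1.85 in HN30/DDP. They did not move together. VWF was at least 5.37-fold higher in HN4/DDP (HN4 was dim) and differed by 1.49 in HN30, while a second VWF probe gave -0.04 and 0.46. CDH5 differed by -0.62 and -0.59, and PECAM1 was at least 2.05-fold lower in HN4/DDP and at least 1.64-fold higher in HN30/DDP, with HN4/DDP and HN30 dim. The part of these levels in the results below was not tested.

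Among the 10 genes, CCND2 was higher in both resistant lines, while CDK4, CDK6, RB1 and CCNE2 were lower in both. For CCND3 and CCNE1 the HN4 pair showed more signal in the resistant line and the HN30 pair less. CDKN2A was higher in HN4/DDP, and its direction in HN30 depended on the scaling. The CCND1 differences lay within 2 scanner SDs in both lines under the main scaling, and CDK2 was lower in HN30/DDP. A lower signal can come from fewer cells in the phase of the cycle that uses a gene or from less RNA per cell, and the arrays cannot tell these apart. In HN30 the size of a lower signal also depended on the processing, for CDK4 from -2.11 with median scaling to -1.13 with quantile normalization.

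**Figure D1:**
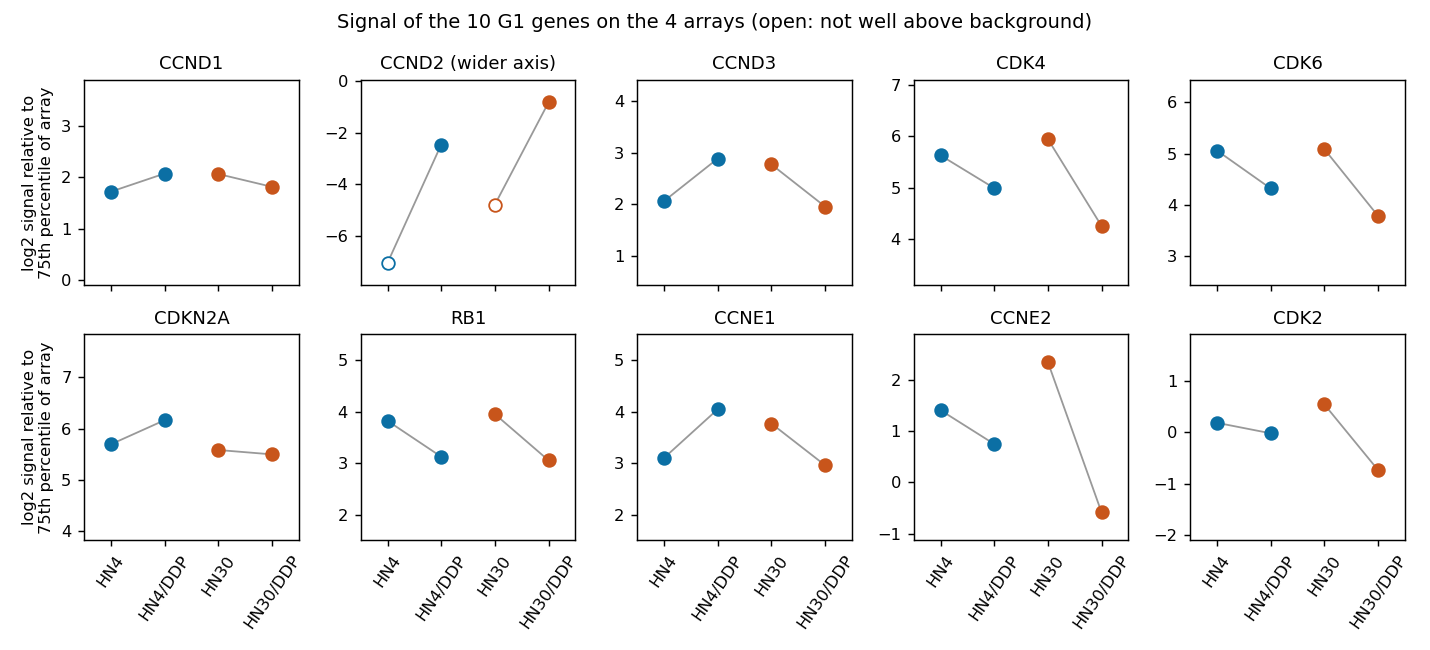
Log2 signal of each gene relative to the 75th percentile of the array, for HN4 and HN4/DDP in blue and HN30 and HN30/DDP in orange, with 1 array per condition and open circles for signals not well above background. Each panel spans the same height except that of CCND2. CDK4, CDK6, RB1 and CCNE2 slope down in both lines, CCND2 slopes up in both, and CCND3 and CCNE1 slope up in HN4 and down in HN30.

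Of the D-type cyclins, CCND1 is the one most often gained in HNSCC. Its probe lies on hg19 at chr11:69468233-69468292 (plus strand) and is printed in 10 spots on each array. CCND1 had a level of 1.72 in HN4 and 2.07 in HN4/DDP, against 2.06 in HN30 and 1.81 in HN30/DDP. The whole spread over the 4 conditions was 0.35, the narrowest of the 10 genes. The difference was 0.35 in HN4 and -0.25 in HN30, both within 2 scanner SDs. Between the spots of 1 array the SD was 0.02 to 0.04, so the spots separate HN4 from HN4/DDP on these arrays without saying how far a second culture would lie. In HN30 the sign turned with quantile normalization, to 0.08, in the deposited log2 table, to 0.01, and with the brightness trend removed, to 0.05, while with median scaling it was -0.67, past 2 scanner SDs.

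CCND2 is a D-type cyclin expressed in a narrower range of tissues. Its only probe lies at chr12:4414040-4414099 (plus strand). The CCND2 level was -7.05 in HN4 and -2.45 in HN4/DDP, against -4.79 in HN30 and -0.81 in HN30/DDP. On neither parental array was it well above background, and on HN4 the scanner had put a surrogate in place of the signal. Both resistant arrays were well above background and higher than both parental arrays. The CCND2 signal of HN4/DDP was at least 4.96-fold above HN4, and that of HN30/DDP at least 14.1-fold above HN30, with the lowest signal well above background of the parental array as the reference. The measured log2 differences were 4.60 (scanner SD 1.45) and 3.98 (scanner SD 0.39). With the normexp background correction they were 1.17 and 1.97, so the direction holds and the size does not.

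The transcripts named after CCND2 on the array differ among themselves. CCND2-AS1, an antisense transcript whose probe lies on the other strand at chr12:4357934-4357993, was dim on both parental arrays. CCND2-AS1 had a level of -3.46 in HN4/DDP and -2.40 in HN30/DDP, at least 2.47-fold and at least 4.68-fold higher than in the parental lines. The probes of lnc-CCND2-1, 2 in number, were not well above background on any array. Of the other genes near CCND2 on chromosome 12, C12orf5 (the p53-induced TIGAR) had differences of 1.46 in HN4 and 0.83 in HN30. RAD51AP1, which acts in homologous recombination, was lower by 0.74 and 1.83, and the PARP11 probes disagreed, with 0.11 and -0.35 by the brighter and -0.55 and 0.85 by the other.

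CCND3, the third D-type cyclin, is measured at chr6:41903193-41903252 (minus strand). The level of CCND3 was 2.06 in HN4 and 2.88 in HN4/DDP, against 2.77 in HN30 and 1.95 in HN30/DDP. The difference of CCND3 was 0.83 in HN4 and -0.82 in HN30, both past 2 scanner SDs, and in HN30 it ran from -1.24 with median scaling to -0.44 with quantile normalization. The levels of HN4/DDP and HN30 lay within the scanner SD of each other, as did those of HN4 and HN30/DDP.

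The probe sequences of the genes on which the results turn most are given in part, as the first 30 of 60 bases, 5′ to 3′, because a reader can match them to the transcripts. The CCND2 probe was the only one higher past 1, and those of CDK4 and RB1 were lower in both lines. The CDKN2A probes are shown because the p16INK4a and p14ARF transcripts share the sequence they detect. None of the 12 probes shared a run of more than 16 bases with a probe of another gene on the array.
CCND2: atcgggccattggattttttccattatgtt
CDK4: ggtaatccggagtgagcaatggagtggctg
RB1: gtgccagaattttaggaacttcagagatcg
CDKN2A, first probe: ttaaaaatgtcctgccttttaacgtagata
CDKN2A, second probe: ctgcggggggcaccagaggcagtaaccatg

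CDK4 and CDK6, the kinases of the D-type cyclins, were lower in both resistant lines. CDK4 (chr12:58142263-58142322, minus strand) had a level of 5.63 in HN4 and 4.99 in HN4/DDP, against 5.95 in HN30 and 4.26 in HN30/DDP. Both resistant arrays were below both parental ones. The log2 difference of CDK4 was -0.64 in HN4, where the resistant array kept 64.3% of the parental signal, and -1.69 in HN30, where it kept 31.0%. Over the ways of processing the HN30 value ran from -2.11 with median scaling to -1.13 with quantile normalization.

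CDK6 (chr7:92234443-92234502, minus strand) had a level of 5.06 in HN4 and 4.32 in HN4/DDP, against 5.09 in HN30 and 3.79 in HN30/DDP. The parental arrays differed by 0.03, less than the scanner SD, and both resistant arrays lay below them. The log2 difference of CDK6 was -0.74 in HN4 (60.0% of the parental signal) and -1.30 in HN30 (40.6%). Over the ways of processing the HN30 value ran from -1.72 to -0.78.

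The RefSeq promoter of CDK4 stands out by its sequence, and it is shown because the MYC protein, for which the E-box is a known site, is a textbook regulator of growth genes. In the 250 bases before the start site (GRCh38.p14, chr12:57752311-57752560, minus strand) the E-box CACGTG, which reads alike on both strands, occurs 3 times, in capitals.
CDK4 promoter: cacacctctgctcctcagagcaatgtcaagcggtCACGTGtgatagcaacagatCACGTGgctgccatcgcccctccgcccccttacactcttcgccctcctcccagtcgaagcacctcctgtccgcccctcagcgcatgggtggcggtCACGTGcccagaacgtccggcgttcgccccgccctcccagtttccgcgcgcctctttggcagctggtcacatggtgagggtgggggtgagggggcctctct
The E-boxes begin at -216, -196 and -101 from the start. Of 35116 RefSeq promoter windows (250 bases before to 50 after the start), 7.26% hold this motif and 33 hold it 3 or more times. Windows were given for 6 of the 10 genes (CCND3, CDK4, CDK6, CDKN2A, RB1 and CCNE1, with 10 windows in all), and besides CDK4 only 1 window of CDK6 held the motif, at 30. The E2F motifs TTTCCCGC, TTTCGCGC, TTTGCCGC and TTTGGCGC (searched on both strands, in 3.31% of windows) and the CRE TGACGTCA (which reads alike on both strands, in 1.85%) were in none of the 10 windows. A match of letters is a description and not a binding site. MYC itself, named after its values were seen, differed by -0.10 in HN4 and -0.67 in HN30 by the brighter of its 2 probes. Genes brighter than 3 had a median of -0.45 in HN30, and a link of MYC to the CDK4 level was not tested.

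CDKN2A, the inhibitor gene, was well above background on all 4 arrays by both probes. The brighter probe (chr9:21968039-21968098, minus strand) had a level of 5.70 in HN4 and 6.16 in HN4/DDP, against 5.58 in HN30 and 5.50 in HN30/DDP. HN4/DDP was the highest, while HN30 lay within the scanner SD of both HN4 and HN30/DDP. For this probe of CDKN2A the difference was 0.47 in HN4, past 2 scanner SDs, and -0.09 in HN30. The second CDKN2A probe (chr9:21970901-21970960) had a level of 3.48, 3.86, 3.38 and 3.07 in the same order of arrays, with differences of 0.38 and -0.31. The sign in HN30 depended on the scaling: the brighter probe gave 0.54 with quantile normalization and 0.49 in the deposited table, and with the brightness trend removed 0.43. Under these 3 settings this probe was higher in both lines past 2 scanner SDs, though the second probe gave 0.10 in HN30 in the deposited table, and with median scaling the brighter probe gave -0.50 there. In the array annotation each probe lists transcripts of p16INK4a and of p14ARF, so the products were not measured apart.

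Within an array, a comparison of the shifts of 1 gene and another does not depend on the scaling factor. Measured so, the brighter CDKN2A probe moved up against CDK4 by 1.11 between HN4 and HN4/DDP and by 1.60 between HN30 and HN30/DDP. Over 7 ways of background correction and scaling these values ran from 1.08 to 1.13 and from 1.58 to 1.68. Against CDK6 the shift of the brighter CDKN2A probe was 1.21 in both lines. The second CDKN2A probe, with differences of 0.38 and -0.31, shifted less against both kinases in both lines, and the ranges above leave it out. The inhibitor and its kinases thus shifted unequally, which does not say whether any of them stayed level.

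Of the genes near CDKN2A on chromosome 9, 7 were tested, with a median difference of 0.05 in HN4 and -0.21 in HN30, where it ran from -0.63 to 0.08 over the ways of processing. MTAP, a metabolic enzyme gene often lost together with CDKN2A, was well above background on all 4 arrays and differed by -0.03 and -0.55, while its other probes gave 0.17 and -0.45, and -0.12 and 0.17. CDKN2B, which encodes the related inhibitor p15INK4b, differed by 0.43 and 0.73, with levels of -2.77, -2.34, -3.56 and -2.82. DMRTA1 differed by 3.69 in HN4, and in HN30, where the parental array was dim, the level was at least 1.90-fold higher. CDKN2A-AS1, on the other strand, was well above background on HN4 and HN30/DDP only.

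RB1, the pocket protein that the D-type and E-type cyclin kinases phosphorylate, has 1 probe in 10 spots at chr13:49055845-49055904 (plus strand). The RB1 level was 3.83 in HN4 and 3.13 in HN4/DDP, against 3.96 in HN30 and 3.06 in HN30/DDP. The parental arrays lay within the scanner SD of each other, as did the resistant arrays, and the resistant pair was lower. The difference of RB1 was -0.70 in HN4 (61.6% of the parental signal) and -0.90 in HN30 (53.6%), and the SD between spots was 0.03 to 0.04. In HN30 it ran from -1.32 with median scaling to -0.45 with the brightness trend removed.

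**Figure D2:**
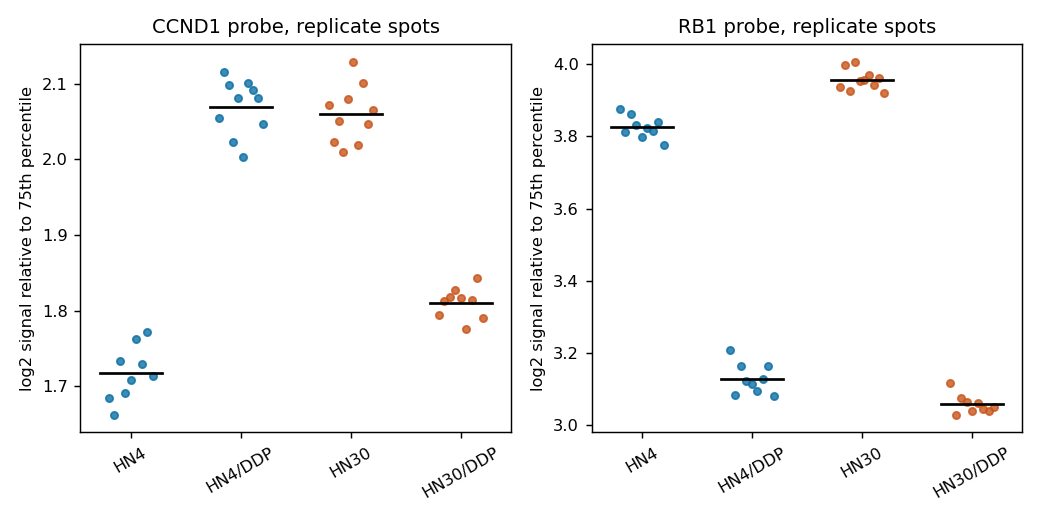
Log2 signal of the replicate spots of the CCND1 and RB1 probes on each array, with 9 or 10 spots after outliers were left out and a line at the mean. The spots of 1 array lie close together, the RB1 spots of both resistant arrays lie below those of both parental arrays, and spots are repeats within an array and not replicates of a condition.

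All 7 genes near RB1 on chromosome 13 were below 0 in HN4, with a median of -0.62. In HN30, 5 of these 7 were below 0, with a median of -0.32 that ran from -0.74 to 0.07 over the ways of processing. The count depends on the probe: FNDC3A was at -0.21 in HN30, while its second probe gave 1.06. ITM2B, which encodes a membrane protein, differed by -0.43 in HN4 and 0.78 in HN30. In HN4 the RB1 difference of -0.70 lay below that of each of the 7 neighbours. In HN30 it lay below that of ITM2B and above those of RCBTB2 (-1.48) and SUCLA2 (-1.06). Differences of the neighbours say nothing of gene copies, which were not measured.

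Of the E-type cyclins, CCNE1 was higher and CCNE2 lower in HN4/DDP, and both were lower in HN30/DDP. CCNE1 (chr19:30315106-30315165, plus strand) had a level of 3.10 in HN4 and 4.05 in HN4/DDP, against 3.77 in HN30 and 2.96 in HN30/DDP. HN4/DDP was the highest and HN30/DDP the lowest, though HN4 and HN30/DDP lay within the scanner SD of each other. The difference of CCNE1 was 0.95 in HN4 (193% of the parental signal) and -0.81 in HN30 (57.0%). The HN30 value ran from -1.23 with median scaling to -0.37, within 2 scanner SDs, with quantile normalization.

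CCNE2 had the widest range of the genes well above background on all 4 arrays, 2.92. The brighter of its probes (chr8:95892618-95892677, minus strand) gave a CCNE2 level of 1.40 in HN4 and 0.75 in HN4/DDP, against 2.34 in HN30 and -0.58 in HN30/DDP. HN30 was the highest and HN30/DDP the lowest, 13.2% of the parental signal. The difference of CCNE2 was -0.66 in HN4 and -2.92 in HN30. The second CCNE2 probe (chr8:95894361-95894420) gave -0.52 and -2.96, with levels of -2.10, -2.62, -0.97 and -3.93. Over all ways of processing the HN30 difference of CCNE2 ran from -3.34 to -2.69. Within the arrays, CCNE1 moved up against the brighter CCNE2 probe by 1.61 in the HN4 pair and by 2.11 in the HN30 pair.

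CDK2, the kinase of the E-type cyclins (chr12:56365789-56365848, plus strand), had a level of 0.19 in HN4 and -0.02 in HN4/DDP, against 0.54 in HN30 and -0.73 in HN30/DDP. HN4 and HN4/DDP lay within the scanner SD of each other, with HN30 above and HN30/DDP below both. The CDK2 difference was -0.20 in HN4, within the scanner SD, and -1.27 in HN30, which left 41.3% of the parental signal.

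Counted past a log2 difference of 1, 1 of the 10 genes was higher in HN4/DDP (CCND2), where 9.31% of all genes tested were, and 0 were lower, where 8.65% were. In HN30/DDP, 1 was higher (CCND2), beside 19.8% of all genes, and 4 were lower (CDK4, CDK6, CCNE2 and CDK2), beside 13.3%. CDK6 left the count of 4 with quantile normalization (-0.79), in the deposited table (-0.82) and with the brightness trend removed (-0.78). Past a difference of 2, CCND2 alone was higher in HN4/DDP (3.61% of all genes) and in HN30/DDP (8.37%). None of the 10 was lower past 2 in HN4/DDP (2.2%), and CCNE2 alone was in HN30/DDP (2.75%). CCND2 left all of these counts where both arrays of a pair, and not just the brighter one, had to be well above background. The median of the 10 differences was 0.07 in HN4 and -0.86 in HN30, and the HN30 median ran from -1.28 to -0.45 over the ways of processing.

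**Figure D3:**
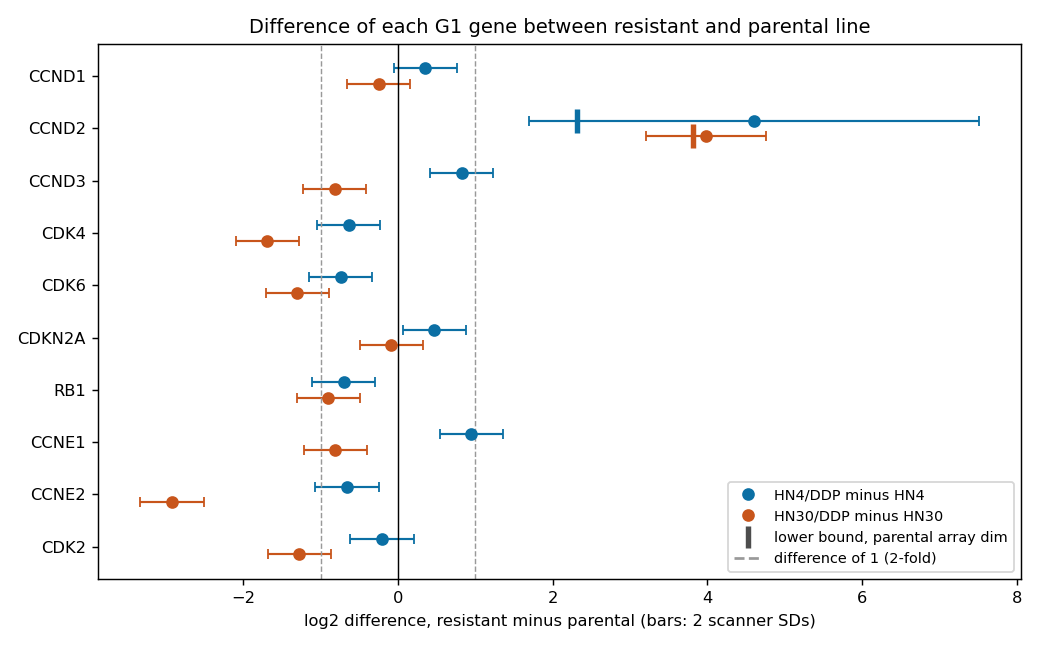
Log2 difference of each gene, resistant minus parental, in HN4 (blue) and HN30 (orange), with bars of 2 scanner SDs, which hold no variation between cultures, and upright marks at the lower bound of CCND2. The bars of CDK4, CDK6, RB1 and CCNE2 lie below 0 in both lines, and those of CCND3 and CCNE1 lie on opposite sides of 0.

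Of the 9 genes well above background on all 4 arrays, 4 were lower in both lines past 2 scanner SDs (CDK4, CDK6, RB1 and CCNE2), beside 10.5% of 22149 genes. These 4 stayed so under each of the 10 alternative ways of processing. The opposite pattern, up in HN4/DDP and down in HN30/DDP past 2 scanner SDs, was that of 2 genes (CCND3 and CCNE1), beside 3.14%. With quantile normalization, in the deposited table and with the brightness trend removed CCND3 alone was left, and with median scaling CDKN2A joined them. From high to low, 5 of the 9 genes (CDK4, CDK6, RB1, CCNE2 and CDK2) had the order HN30, HN4, HN4/DDP and HN30/DDP, beside 13.6% of genes. With quantile normalization 3 of them had it (CDK4, CCNE2 and CDK2, beside 13.1% of genes), and with median scaling the same 5, beside 22.6%. HN30/DDP was the lowest array for 8 of the 9 (34.3% of genes), but for 4 of them with quantile normalization (37% of genes) and all 9 with median scaling (56.3%).

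How far the lines differ from each other has no test, with 1 array per condition. As a description, the HN30 difference lay below the HN4 difference for all 9 genes well above background on every array, beside 50.4% of the 22149 genes so measured. With median scaling, under which HN30 differences are lower throughout, it held for all 9 and for 70.3% of genes. It held for 8 of the 9, RB1 being the exception, with quantile normalization (53.6% of genes), in the deposited table (54.5%) and with the brightness trend removed (50.8%). The gap was -2.26 for CCNE2, -1.76 for CCNE1, -1.65 for CCND3, -1.07 for CDK2 and -1.05 for CDK4, with a scanner SD of 0.29 for each. For RB1 it was -0.20, within the scanner SD, and its sign turned with quantile normalization, where RB1 differed by -0.57 in HN4 and -0.46 in HN30.

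**Figure D4:**
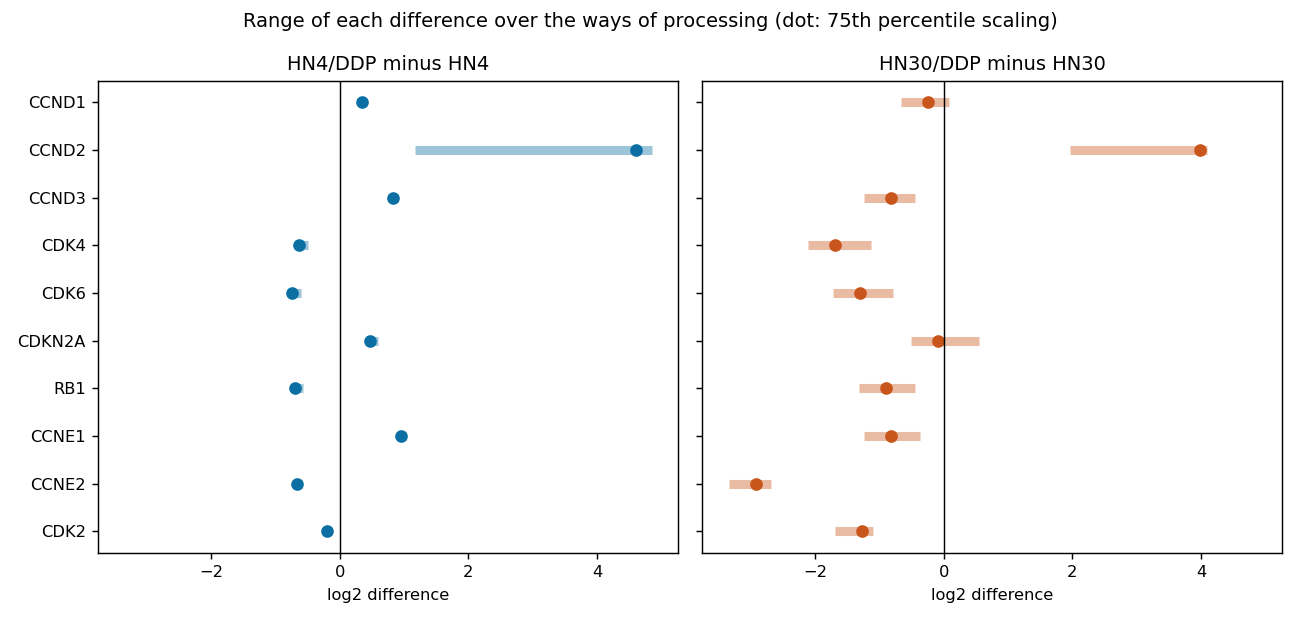
Main log2 difference of each gene (dot) and its range over the main and the 10 alternative ways of processing (bar), in HN4 and in HN30. In HN4 the bars are short except for CCND2, whose lower end is 1.17, and in HN30 those of CCND1 and CDKN2A cross 0.

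The only contrast with any replication sets both resistant arrays against both parental ones, blocked by line, which leaves each gene 1 residual degree of freedom. By limma, 0 of the 10 genes and 0 of all 29521 genes had an adjusted p under 0.05 (Benjamini-Hochberg over all genes). The adjusted p of the 10 ranged from 0.382 for CCND2 (log2 difference 4.29, standard error 0.43, higher in 2 of 2 lines) to 0.999 for CCND3. The CCND2 estimate rests on parental signals not well above background, and gives no support of its own. CDK4 had -1.16 (standard error 0.40, adjusted p = 0.559), CDK6 -1.02 (0.36, adjusted p = 0.564) and CCNE2 -1.79 (0.67, adjusted p = 0.585), each lower in 2 of 2 lines. At an unadjusted p under 0.05, limma counted 3 of the 10 genes, CDK4, CDK6 and the dim CCND2, beside 5.28% of all genes higher and 3.31% lower. Without the trend in eBayes it counted 1 of the 10, beside 7.4% of all genes.

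Other genes of the pathway were taken from lists by role. Of 6 CDK inhibitors, 2 were higher and 1 lower past 1 in each line. Of all genes, 9.31% were higher and 8.65% lower past 1 in HN4, and 19.8% and 13.3% in HN30. CDKN1A, which encodes p21, the p53-induced inhibitor of CDK2, had a level of -2.20 in HN4 and 1.37 in HN4/DDP, against -2.05 in HN30 and 0.45 in HN30/DDP. CDKN1C, which encodes p57, had 0.51, 3.22, -0.46 and 4.08 in the same order. For both, each resistant array was above both parental arrays, with differences of 3.58 and 2.50 for CDKN1A and 2.71 and 4.53 for CDKN1C. CDKN2C, which encodes p18INK4c, an inhibitor of CDK4 and CDK6, was lower by 1.91 and 1.18. CDKN1B, which encodes p27, differed by -0.91 in HN4 and 0.05 in HN30 (its second probe by -0.51 and -0.09).

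Of 12 pocket proteins and E2F factors, 0 were higher past 1 (9.31% of all genes) and 1 lower (8.65%) in HN4/DDP. In HN30/DDP 0 were higher (19.8%) and 6 lower (13.3%). The median difference of the 12 was -0.30 in HN4 and -1.16 in HN30 (-1.58 to -0.81 over the ways of processing). The other pocket proteins parted in HN30: RBL1, which encodes p107, was lower by 2.65 (its second probe by 2.75), and RBL2, which encodes p130, was higher by 0.68. In HN4 RBL1 differed by -0.31 and RBL2 by -0.19. E2F1, an activating E2F that RB1 binds, differed by -0.71 in HN4 and -2.95 in HN30.

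Downstream, 16 target genes of E2F factors that act in S phase had a median difference of -0.50 in HN4 and -2.32 in HN30. In HN4/DDP 15 of the 16 were below 0, and 3 were lower past 1 (8.65% of all genes). In HN30/DDP all 16 were below 0, and 15 were lower past 1 (13.3% of all genes). The HN30 median ran from -2.74 to -1.88 over the ways of processing. MCM4, a subunit of the replicative helicase, was lower by 1.49 and 2.78. TYMS, which makes thymidylate, was lower by 1.01 and 2.40. The 12 mitotic genes were all below 0 in both lines, with medians of -0.31 and -1.68. MKI67, a marker of cycling cells, was lower by 1.09 and 1.64, and its other 2 probes were lower past 1 as well. These differences moved in the same direction as those of CDK4, CDK6 and CCNE2, and their part in them was not tested.

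**Figure D5:**
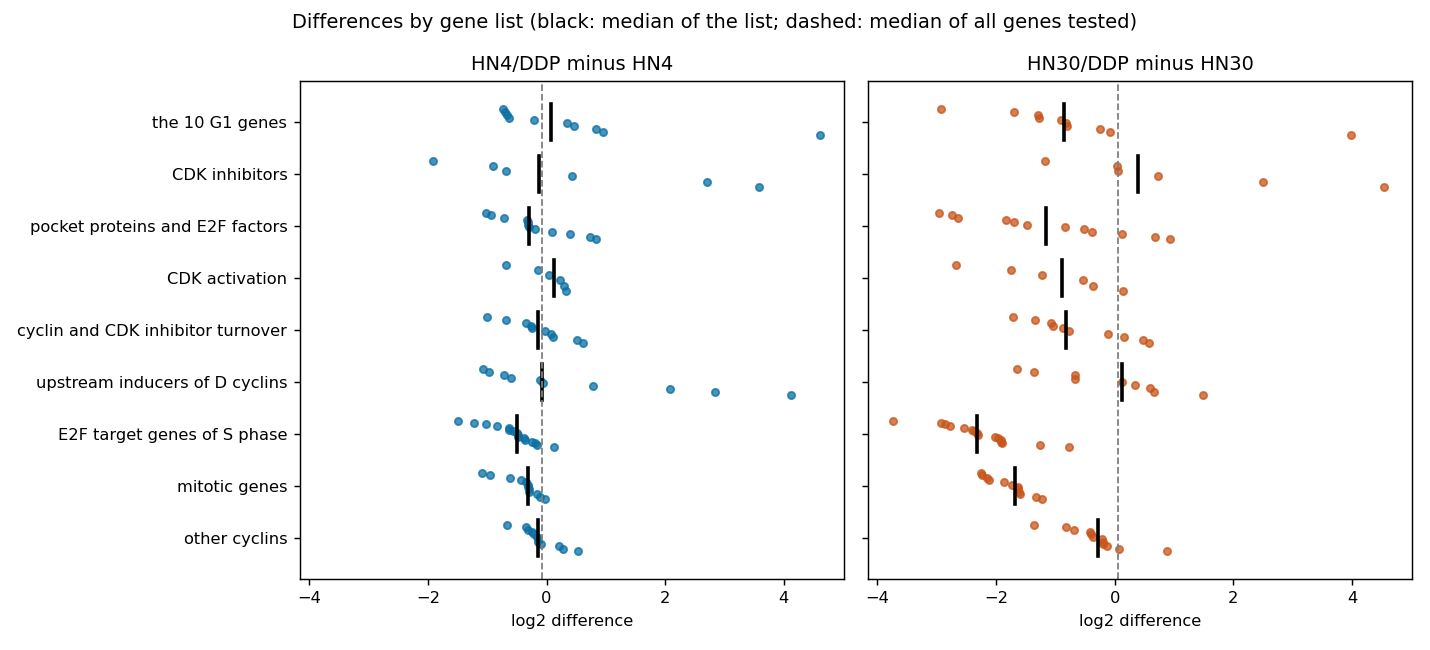
Log2 difference of each gene, resistant minus parental, by list, in HN4 and in HN30, with a black bar at the median of the list and a dashed line at the median of all genes tested (-0.08 and 0.06). In HN30 the medians of the E2F target genes (-2.32) and the mitotic genes (-1.68) lie farthest below the dashed line, while CDKN1A, CDKN1C and CCND2 lie above 2 in both lines.

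Of 6 genes that activate or restrain the CDKs, the median difference was 0.13 in HN4 and -0.88 in HN30 (-1.30 to -0.42 over the ways of processing). Lower past 1 were 0 of them in HN4/DDP (8.65% of all genes) and 3 in HN30/DDP (13.3%). Among 10 genes for the turnover of cyclins and inhibitors, 1 was lower past 1 in HN4/DDP (8.65% of all genes) and 4 in HN30/DDP (13.3%). None was higher past 1 (9.31% and 19.8% of all genes), and the medians were -0.14 and -0.82 (in HN30 from -1.24 to -0.40). The 12 measured cyclins of other phases and functions had medians of -0.15 and -0.29 (in HN30 from -0.71 to -0.09). Of these cyclins 0 and 1 were lower past 1 (8.65% and 13.3% of all genes). Of 10 genes that induce D-type cyclins, 3 were higher (9.31% of all genes) and 1 lower (8.65%) past 1 in HN4/DDP. In HN30/DDP, 9 were tested, 1 was higher (19.8%) and 2 were lower (13.3%). EGFR, the growth factor receptor, had a level of 3.03 in HN4 and 1.97 in HN4/DDP, against 2.59 in HN30 and 4.08 in HN30/DDP. The EGFR difference was -1.07 in HN4 and 1.49 in HN30. Its other probes gave -1.64 and 0.98, and -1.61 and -0.12, so all 3 probes were lower in HN4/DDP and 2 of them were higher in HN30/DDP.

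Of the genes beside CCND1 on chromosome 11, 9 were tested, with a median difference of 0.19 in HN4 (0.16 to 0.51 over the ways of processing) and -0.78 in HN30 (-1.20 to -0.21). CTTN, which encodes the actin-binding cortactin, and FADD, an adaptor of death receptors, are often gained with CCND1 in HNSCC. CTTN differed by 0.19 in HN4 and -0.85 in HN30 (by its second probe 0.82 and -0.23), and FADD by 0.04 and -0.98. ANO1, a chloride channel, differed by 0.48 and -1.18, and MYEOV by 1.62 and -0.83. FGF19, a growth factor gene dim on both parental arrays, was at least 1.45-fold higher on the resistant array in the HN4 pair and at least 4.95-fold in the HN30 pair. The CCND1 differences of 0.35 and -0.25 lay between those of its neighbours in both lines.

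The genes whose pattern over the 4 arrays was most like that of CCNE2 and CDK4, the members of the 9 measured on all arrays with the widest ranges, were found by the root mean square distance of centred log2 levels, among 22148 genes. For CCNE2 they were EFCAB2 (0.084), HIST1H2AE (0.108) and HIST1H2AD (0.113), both of the latter encoding histones H2A. For CDK4 they were EIF4E2 (0.016), CRELD2 (0.018) and MANEAL (0.022). Over 4 arrays such likeness is a description only.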

How the data were processed

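HN4, HN4/DDP, HN30 and HN30/DDP (labelled HN4_CR and HN30_CR for the resistant lines) were each measured on 1 Cy3 array. The authors deposited the intensity of each spot as read by Agilent Feature Extraction 10.7.1.1, with background subtracted and probe coordinates on hg19. A log2 table that they deposited too has columns that are identical when sorted (median 4.65), as quantile normalization leaves them. The sources used here do not give what preceded that step, and the methods state no filter. The paper's results call the experiment RNA sequencing, while its methods and the data are arrays.

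From the processed intensities of 60901 non-control spots, log2 values minus the 75th percentile of each array were taken. Outlier spots were left out, spots of a probe averaged, and the probe of highest mean stood for a gene. Genes well above background on the brighter array were counted past a log2 difference of 1 or 2. For dim parental signals the bound used the array's lowest signal well above background (-4.76, -4.99, -4.63 and -4.94 for HN4, HN4/DDP, HN30 and HN30/DDP). Limma 3.58.1 (R 4.3.3, eBayes with trend, Benjamini-Hochberg) was fitted to 29521 genes. It was tried on simulated data of that comparison, with equal spread in all genes. There it called 200 of 200 genes changed by 3 and 10 unchanged ones. How many such changes it would find at the spread of the real arrays, where 0 of 29521 genes passed, was not tested. Other steps used Python 3.11.15, numpy 2.4.6, pandas 2.3.3 and statsmodels 0.14.6. Symbols were matched by accession to RefSeq for all 10 genes. Promoters came from RefSeq (GRCh38.p14).

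The members and lists were chosen with earlier results of these data known. Genes of the lists were named by a rule: CDKN1A, CDKN1B, RBL1, RBL2 and E2F1 always, up to 3 per list past 1 the same way in both lines, those past 1 in opposite ways, and neighbours of CCND1, CCND2, CDKN2A and RB1. Some genes that the rule names are not reported here. The alternatives were scaling by the median, quantile normalization or none, normexp (offset 50), dim signals at the floor, a pseudocount of 16, the mean of probes, the deposited table, outlier spots kept and, chosen after seeing the data, removal of the trend with brightness (lowess, fraction 0.2). The number of arrays limits the precision, and scanner SDs cover error within an array only.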

Additional observations from a re-analysis of the deposited data

Results flagged for a closer look

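Of 114 genes of the pathway and neighbour lists and of the 10 genes themselves that were well above background on all 4 arrays, 9 went opposite ways in the 2 lines, each past 2 scanner SDs, as did 8.1% of all 22149 genes so measured. With 1 array per condition, whether the lines differ was not tested. CCND3 differed by 0.83 in HN4 and -0.82 in HN30, and CCNE1 by 0.95 and -0.81. Of the induction list and the neighbours, EGFR differed by -1.07 and 1.49, ANO1 by 0.48 and -1.18, MYEOV by 1.62 and -0.83, and ITM2B by -0.43 and 0.78. For ITM2B a second probe gave -0.55 and 0.73. Outside the rule for named genes, E2F8 differed by 0.74 and -1.83, FOSL1 by 0.78 and -1.64, and ETS2 by -0.60 and 0.60, named after their values were seen. Of the cell type markers KRT6A also went opposite ways, with 3.32 in HN4 and a level at least 183-fold lower in HN30/DDP, where it was dim.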

How the results depend on the processing

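Of 200 alternative values of the members' differences, 163 moved by less than the scanner SD and 37 by more, and no difference past 2 scanner SDs in the main setting changed sign. CCND1 and CDKN2A, both within 2 scanner SDs in HN30, changed sign there under 3 and 4 of the alternatives, and CDKN2A then reached 0.54, past 2 scanner SDs. The median of the 10 genes in HN30 was -1.28 with median scaling, -0.45 with quantile normalization, -0.49 in the deposited table and -0.46 with the brightness trend removed. In HN4, 2 genes were higher past 1 with quantile normalization, in the deposited table and with the trend removed, CCNE1 being the second, beside 9.38%, 9.3% and 10.8% of all genes. Where both arrays of a pair had to be well above background, CCND2 dropped out through the filter itself. In either line 0 were then higher past 1 or past 2, and the share of all genes under that filter was not computed. With normexp 0 were higher past 2 in either line, beside 0.961% of all genes in HN4 and 1.97% in HN30. With median scaling, 7 were lower past 1 (beside 23.9% of all genes) and 2 lower past 2 (5.41%) in HN30. With quantile normalization, in the deposited table and with the trend removed, 3 were lower past 1 there (13.1%, 13.4% and 10.3%), without CDK6. The opposite pattern of CCND3 and CCNE1 was left for 1 gene with quantile normalization, in the deposited table and with the trend removed. The cause of these shifts was not tested, apart from the dim parental signals of CCND2, which set its counts. By limma, 0 of the 10 genes passed an adjusted p of 0.05 under any alternative, and at an unadjusted p under 0.05 the count was 1 without the trend (beside 7.4% of all genes), 2 of 9 with genes well above background on all 4 arrays (8.84%) and 5 without the block (11%), against 3 and 8.59% otherwise. The replicate numbers of the labels, all 1, pair no samples, so the pairing used was that of each resistant line with its own parent, as the block of the limma fit.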
